A study of Mus musculus with 20 samples.

Results

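The genes described here are the matrix metalloproteinases (Mmp), the ADAMTS proteases (Adamts), the ADAMTS-like proteins (Adamtsl) and the tissue inhibitors of metalloproteinases (Timp). They were chosen by mouse gene symbol and by having 10 or more counts in at least 5 of the 20 libraries. Of 51 genes whose symbols fit, 40 met that count minimum, out of 25700 gene identifiers in all. They are 16 Mmp, 15 Adamts, 5 Adamtsl and 4 Timp genes.

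The study sequenced poly(A) RNA of 20 mouse libraries in 4 groups of 5, and its design text speaks of bicarbonate given as alkali therapy to mice with crystal nephropathy, a kidney disease caused by crystals. The groups were oxalate mice on alkali therapy, untreated oxalate mice, control mice on alkali therapy and untreated control mice. The sample labels give no strain, sex, age, tissue, dose or sampling time, and the word "late" in the names of both alkali groups is not explained. They also do not say that the libraries came from separate animals, so the p-values speak only of the spread among these libraries, which may be technical in part.

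Matrix metalloproteinases are zinc endopeptidases that cleave collagens, elastin, laminins and other extracellular proteins, and most are made as inactive proforms. ADAMTS proteases are secreted enzymes with thrombospondin repeats that trim procollagens, cleave proteoglycans or shape fibrillin fibres, and the ADAMTS-like proteins share the repeats but lack the protease domain. TIMPs bind the active site of these enzymes, and the balance between enzymes and inhibitors is a classical theme of kidney injury and scarring, in which macrophages, fibroblasts and injured tubule cells are sources of both.

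Total counts ran from 25547840 to 39550689 per library, and the 40 genes took 0.235% to 0.408% of them. Values below are CPM, read counts per 1000000 of the library size after TMM scaling, unless they are given per length. Kidney markers were present throughout, with 8 proximal tubule genes summing to 15100 to 54400 CPM. A few libraries stood apart from their groups. Alkali-treated oxalate library 2 lay near the control libraries on the first principal component of all genes (-17.0, against 22.6 to 69.3 for the other 4 libraries of its group and -61.9 to -32.0 for the control libraries), and untreated oxalate library 40 lay farthest away (102, against 26.2 to 75.0 in its group). The 4 fat cell markers summed to more than 100 CPM in alkali-treated oxalate library 33, alkali-treated control library 4 and untreated control libraries 9 and 26 (450, 147, 170 and 509 CPM), against 26.9 to 63.0 CPM in the other libraries.

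Among the proteases, 4 sit in 1 stretch of mouse chromosome 9 that holds 10 Mmp genes in 427 kb (chr9:7272514-7699585, GRCm38), in the order Mmp13, Mmp12, Mmp1b, Mmp3, Mmp1a, Mmp10, Mmp8, Mmp27, Mmp20 and Mmp7. The 3 largest changes among the Mmp genes, those of Mmp7, Mmp12 and Mmp3, were in this stretch. Promoter windows from RefSeq (GRCm38.p6), reaching from 250 bases before to 50 bases after a gene's start, were at hand for 26 of the 40 genes. They were searched for the AP-1 motif TGANTCA, the letters bound by Fos and Jun proteins, which reads the same on both strands. It was found in 4 of these 26 genes (15.4%), against 2425 of 27025 genes with a window (8.97%) and 7.81% of all windows of that length. All 4 were the genes of the chromosome 9 stretch that met the count minimum, and among its other genes Mmp10, Mmp1a, Mmp1b and Mmp20 held it too, while Mmp27 and Mmp8 did not. The 120 bases before each start are shown because the motif lies there in all 4 genes. The stretches are chr9:7347254-7347373 for Mmp12 (before its second annotated start), chr9:7445702-7445821 for Mmp3, chr9:7691970-7692089 for Mmp7 and chr9:7272394-7272513 for Mmp13, all on the plus strand, and the capitals mark the AP-1 match.
Mmp12: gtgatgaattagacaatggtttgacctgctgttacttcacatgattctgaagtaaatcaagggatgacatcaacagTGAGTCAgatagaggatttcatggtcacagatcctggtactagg
Mmp3: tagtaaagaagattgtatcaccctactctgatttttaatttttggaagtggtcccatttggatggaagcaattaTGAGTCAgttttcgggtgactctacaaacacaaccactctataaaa
Mmp7: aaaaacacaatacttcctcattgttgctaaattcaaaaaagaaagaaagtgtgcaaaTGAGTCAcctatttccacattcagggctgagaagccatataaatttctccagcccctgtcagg
Mmp13: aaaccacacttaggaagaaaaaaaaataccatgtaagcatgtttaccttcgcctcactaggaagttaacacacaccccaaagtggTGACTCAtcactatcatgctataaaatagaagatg
The match began at -44 in Mmp12, -46 in Mmp3, -63 in Mmp7 and -35 in Mmp13, counted from the start. The letters were TGAGTCA in Mmp12, Mmp3 and Mmp7, and TGACTCA in Mmp13. The ETS motif AGGAAG, searched on both strands, was in 10 of the 26 genes (38.5%), against 38.4% of all genes with a window. These were Adamts12, Mmp12, Mmp13, Mmp14, Mmp25, Mmp3, Mmp7, Timp1, Timp3 and Timp4. A gene could have more than 1 window. In Mmp12 the ETS match (window chr9:7344147-7344446) and the AP-1 match (window chr9:7347124-7347423) were at different starts. A match describes letters in a window, not binding. Adamts10, Adamts15, Adamts16, Adamts4, Adamts5, Adamts6, Adamts7, Adamts8, Adamtsl1, Mmp16, Mmp17, Mmp19, Mmp2 and Mmp9 were not searched.

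The first comparison set untreated oxalate mice against untreated control mice, that is, crystal nephropathy without therapy. Most genes of the Mmp class rose, led by macrophage elastase (Mmp12, 191-fold) and matrilysin (Mmp7, 195-fold), and so did the inhibitors Timp1 (26.5-fold) and Timp2 (4.29-fold). Timp3, the most abundant of all 40 genes, fell, as did the protease Adamts15. Of the 40 genes, 29 were higher and 2 lower in untreated oxalate mice (edgeR's quasi-likelihood test, Benjamini-Hochberg adjusted p under 0.05), where 26.4% of the 15430 genes tested were higher and 23.1% lower, or 49.4% in all. The median log2 fold change was 1.50 over the 40 genes and 0.00 over all genes tested. In 21 of the 40 genes all 5 untreated oxalate libraries lay above all 5 untreated control libraries, and in 2 genes below, against 18.5% and 15.4% of all genes. By class, 14 of 16 Mmp genes were higher, 9 of 15 Adamts genes were higher and 1 lower, 4 of 5 Adamtsl genes were higher, and 2 of 4 Timp genes were higher and 1 lower.

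A gene could meet the count minimum through the oxalate libraries alone. Of the 40 genes, 12 had fewer than 10 counts in some library, and Adamts17, Mmp24 and Mmp7 reached 10 counts in no control library at all. Among the 28 genes with 10 or more counts in every library, 21 were higher and 2 lower in untreated oxalate mice, and the median log2 fold change was 1.38. The share of all genes with 10 or more counts in every library was not counted, so these counts have no matching background. Scaling to total counts in place of TMM raised the log2 median of all genes by 0.30, and 85.1% of all calls were then higher, against 53.3% with TMM. Under that scaling 31 of the 40 genes were higher and the same 2 lower, where 48.6% of all genes tested were higher and 8.48% lower, and no called gene changed direction. In these bulk libraries more cells of a type and more RNA per cell cannot be told apart.

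Mmp12 (ENSMUSG00000049723, chr9:7344381-7369499), the macrophage elastase, had 78.3, 202, 280, 352 and 1100 CPM in untreated oxalate libraries, against 1.23, 1.32, 1.37, 2.76 and 3.78 CPM in untreated control libraries. The groups were far apart, although library 40 held 1100 CPM, more than 3 times the next library of its group. The change was 191-fold (log2 fold change 7.58 ± 0.79 (SE), edgeR adjusted p = 1.14e-06), and without library 40 the log2 fold change was 6.72 (edgeR adjusted p = 2.05e-06). Mmp7 (ENSMUSG00000018623, chr9:7692090-7699585), the smallest of these enzymes and a product of injured tubule epithelium, had 3.49, 3.94, 5.89, 6.12 and 14.1 CPM in untreated oxalate libraries, against 0, 0, 0, 0.0423 and 0.122 CPM in untreated control libraries. Untreated control libraries thus held at most 3 reads of Mmp7, and 3 of them none. The fitted change of 195-fold (log2 fold change 7.61 ± 0.90 (SE), edgeR adjusted p = 2.64e-06) depends on how such low counts are fitted, and it was 8.98 on the log2 scale without untreated control library 35. 

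Mmp3 (ENSMUSG00000043613, chr9:7445822-7455975), stromelysin-1, which also activates other proforms, had 1.95, 2.04, 6.62, 6.7 and 8.05 CPM in untreated oxalate libraries, against 0.212, 0.226, 0.24, 0.249 and 0.325 CPM in untreated control libraries. It rose in all 5 libraries, with libraries 39 and 32 well below the other 3 (log2 fold change 4.32 ± 0.51 (SE), edgeR adjusted p = 2.64e-06). Mmp19 (ENSMUSG00000025355, chr10:128790910-128800824), a secreted enzyme that cleaves basement membrane proteins, had 3.38, 4.37, 11.9, 16.1 and 23.5 CPM in untreated oxalate libraries, against 0.284, 0.296, 1.02, 1.5 and 2.33 CPM in untreated control libraries. Its untreated control libraries were widely spread but stayed below every untreated oxalate library (log2 fold change 3.42 ± 0.63 (SE), edgeR adjusted p = 0.00024). Exons of Mmp19 share 22.3% of their length with Tmem198b on the other strand, and the strand setting of the counting is not known.

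Mmp2 (ENSMUSG00000031740, chr8:92827291-92853420), gelatinase A, had 19.9, 27.4, 40.2, 47.9 and 56.5 CPM in untreated oxalate libraries, against 3.45, 3.84, 3.97, 3.99 and 4.28 CPM in untreated control libraries. Mmp14 (ENSMUSG00000000957, chr14:54431612-54445364), the membrane-bound enzyme that activates the proform of Mmp2 with the help of Timp2, had 33.3, 46.7, 67.3, 73.4 and 103 CPM in untreated oxalate libraries, against 7.59, 7.8, 7.91, 8.04 and 8.62 CPM in untreated control libraries. Both genes were tight in untreated control libraries and had no overlap between the groups. Mmp2 rose 9.85-fold (log2 fold change 3.30 ± 0.33 (SE), edgeR adjusted p = 6.25e-07) and Mmp14 rose 8.11-fold (log2 fold change 3.02 ± 0.28 (SE), edgeR adjusted p = 4.5e-07).

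A further 8 Mmp genes rose. The membrane-type enzymes among them were Mmp24 (3.03 ± 0.58, adjusted p = 0.000338), Mmp25 (2.90 ± 0.40, adjusted p = 1.28e-05), Mmp15 (1.02 ± 0.20, adjusted p = 0.000448) and Mmp17 (0.63 ± 0.24, adjusted p = 0.0328), given as log2 fold change ± SE with the edgeR adjusted p. Gelatinase B (Mmp9) (1.90 ± 0.37, adjusted p = 0.000334), stromelysin-3 (Mmp11), which furin activates inside the cell (1.70 ± 0.25, adjusted p = 1.99e-05), Mmp23 (1.66 ± 0.21, adjusted p = 4.07e-06) and the collagenase Mmp13 (0.72 ± 0.27, adjusted p = 0.0316) made up the rest. Mmp13 and Mmp17 were the least secure: without untreated oxalate library 40 their log2 fold changes were 0.34 and 0.42 (edgeR adjusted p = 0.235 and 0.147). Mmp13 also missed the threshold without untreated oxalate library 12 or untreated control library 9, 19 or 26 (log2 fold changes from 0.64 to 0.72, edgeR adjusted p from 0.0518 to 0.0757). Mmp17 also missed it without untreated oxalate library 3 or 39 or untreated control library 9, 13 or 19 (log2 fold changes from 0.54 to 0.62, edgeR adjusted p from 0.0515 to 0.0827). Without the 4 libraries with fat markers Mmp13 was at 0.65 and Mmp17 at 0.63 (edgeR adjusted p = 0.123 and 0.0664). Mmp16 (0.62 ± 0.34, adjusted p = 0.138) and Mmp28 (0.13 ± 0.21, adjusted p = 0.627) did not pass the test. Mmp24 and Mmp25 were rare throughout, with at most 1.17 and 1.07 CPM in any library.

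**Figure D1:**
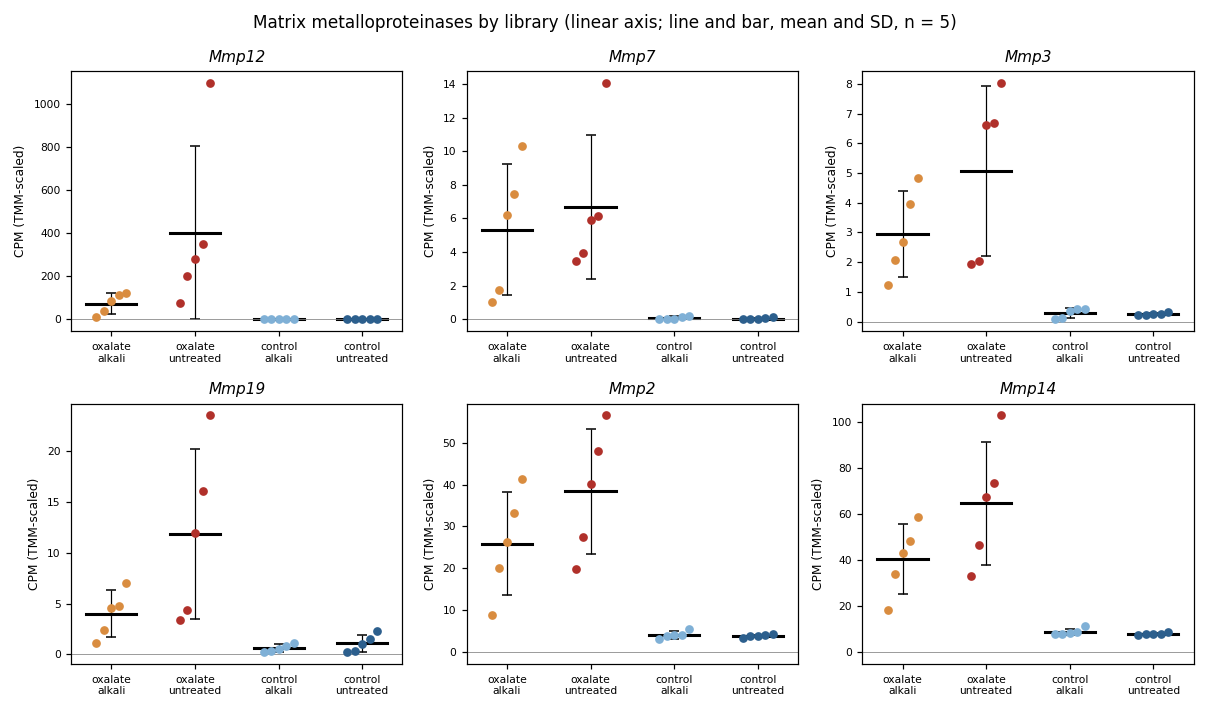
TMM-scaled CPM (vertical axis, linear, its own range in each panel) of 6 matrix metalloproteinases in every library, with the 4 groups along the horizontal axis. Points are libraries, the line is the mean and the bar the SD of 5 libraries, and untreated oxalate library 40 is the top point of its group for Mmp12 (1100 CPM), Mmp7 (14.1 CPM), Mmp19 (23.5 CPM), Mmp2 (56.5 CPM) and Mmp14 (103 CPM).

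Among the Adamts proteases, Adamts2 (ENSMUSG00000036545, chr11:50602084-50807573), which removes the amino-terminal propeptide of type I procollagen, had 7.72, 11.4, 19.5, 24.4 and 33.7 CPM in untreated oxalate libraries, against 1.9, 2.64, 3.21, 3.47 and 4.11 CPM in untreated control libraries. The groups did not overlap (log2 fold change 2.65 ± 0.37 (SE), edgeR adjusted p = 1.28e-05). Its relatives Adamts3 (0.88 ± 0.38, adjusted p = 0.065) and Adamts14 (0.35 ± 0.26, adjusted p = 0.283) did not pass the test, although Adamts3 did without untreated control library 19 (1.16, edgeR adjusted p = 0.0275). Col1a1, Col1a2 and Col3a1, the procollagen genes, rose by 3.19, 2.64 and 3.33 on the log2 scale in the same comparison.

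The proteoglycan-cleaving members moved in different directions. Adamts4 (ENSMUSG00000006403, chr1:171250421-171260637), an aggrecanase, had 3, 3.11, 7.09, 9.95 and 16.4 CPM in untreated oxalate libraries, against 0.958, 1.05, 1.14, 1.31 and 3.31 CPM in untreated control libraries. Adamts1 (ENSMUSG00000022893, chr16:85793827-85803113), which cleaves aggrecan and versican, had 88, 104, 174, 217 and 285 CPM in untreated oxalate libraries, against 46.3, 49.8, 53.4, 55.6 and 106 CPM in untreated control libraries. For both genes the lowest untreated oxalate values, in libraries 32 and 39, reached down to untreated control library 19, which stood above the other 4 control libraries. Adamts4 rose 5.06-fold (log2 fold change 2.34 ± 0.42 (SE), edgeR adjusted p = 0.000167) and Adamts1 rose 2.79-fold (log2 fold change 1.48 ± 0.30 (SE), edgeR adjusted p = 0.000534). Adamts5, the neighbour of Adamts1 at a distance of 53.1 kb on chromosome 16, rose too (0.74 ± 0.13, adjusted p = 0.000101). Adamts15, another enzyme of this kind, fell: it had 12.6, 13, 13.2, 14 and 14.5 CPM in untreated oxalate libraries, against 18.5, 20.4, 21.3, 35.9 and 41.6 CPM in untreated control libraries. All 5 untreated oxalate libraries lay below all 5 untreated control libraries (log2 fold change -1.03 ± 0.22 (SE), edgeR adjusted p = 0.000774). Adamts8, which lies 20.1 kb from Adamts15, did not pass the test (0.40 ± 0.31, adjusted p = 0.292), nor did Adamts9 (-0.03 ± 0.10, adjusted p = 0.81).

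Adamts1 and Adamts4 had their highest values in untreated oxalate libraries 12 and 3, not in library 40. Junb, an immediate early gene and AP-1 subunit picked here after its values were seen, was also highest there, at 107 and 56.1 CPM against 15.1 to 20.8 CPM in the other 3 untreated oxalate libraries. Untreated control library 19, the highest of its group for Adamts1 and Adamts4, had 24.3 CPM of Junb against 4.23 to 10.5 CPM in the rest of its group. Other values went another way. In untreated control mice Jun and Fos were highest in library 9 (68.8 and 9.08 CPM), above library 19 (58.9 and 6.95 CPM). Fosb, Fosl1 and Fosl2 were highest in library 19. In alkali-treated oxalate mice Junb was highest in libraries 8 and 30 (28.3 and 23 CPM). Adamts1 was highest there in libraries 33 and 5, and Adamts4 in libraries 8 and 33. The part of Junb in the values of both proteases was not tested. Without library 19 the log2 fold change of Adamts1 was 1.76 and that of Adamts4 2.83.

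Adamts12 (ENSMUSG00000047497, chr15:11064790-11349231) and Adamts7 (ENSMUSG00000032363, chr9:90163069-90208071), which cleave cartilage oligomeric matrix protein, rose together. Adamts12 had 2.36, 2.98, 3.89, 4.59 and 9.69 CPM in untreated oxalate libraries, against 0.642, 1.09, 1.1, 1.19 and 2.43 CPM in untreated control libraries, and the lowest untreated oxalate library fell just under the highest control library. Its change was 1.86 ± 0.43 on the log2 scale (SE, edgeR adjusted p = 0.00141). Adamts7 had 4.83, 5.36, 7.32, 8.79 and 10.4 CPM in untreated oxalate libraries, against 2.16, 2.46, 2.74, 2.84 and 3.35 CPM in untreated control libraries. The groups were apart (log2 fold change 1.44 ± 0.26 (SE), edgeR adjusted p = 0.000197). Adamts10 (ENSMUSG00000024299, chr17:33524204-33553782), which is tied to fibrillin microfibrils, had 22.7, 28.4, 38.8, 52.5 and 58.1 CPM in untreated oxalate libraries, against 9.61, 12, 15.8, 17 and 25.1 CPM in untreated control libraries, with an overlap through control library 26 (log2 fold change 1.33 ± 0.29 (SE), edgeR adjusted p = 0.00103). Adamts17, a close relative of Adamts10, was at most 1.81 CPM, and 3 of 5 untreated control libraries held none of it (4.06 ± 1.04, adjusted p = 0.0031). Adamts16 rose as well (0.68 ± 0.15, adjusted p = 0.000808), while Adamts6 (-0.21 ± 0.23, adjusted p = 0.452) did not pass the test.

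Among the Adamtsl genes, Adamtsl5 (ENSMUSG00000043822, chr10:80339110-80348412) had 3.79, 4.33, 7.52, 10.4 and 10.9 CPM in untreated oxalate libraries, against 1.1, 1.14, 1.78, 2.22 and 2.64 CPM in untreated control libraries. Adamtsl4 (ENSMUSG00000015850, chr3:95676201-95687917), which binds fibrillin microfibrils, had 5.99, 7.45, 11.2, 11.6 and 12.2 CPM in untreated oxalate libraries, against 1.57, 2.03, 2.67, 3.62 and 3.99 CPM in untreated control libraries. Adamtsl1 (ENSMUSG00000066113, chr4:85514172-86428385) had 5.3, 7.74, 12, 12 and 17.1 CPM in untreated oxalate libraries, against 2.76, 3.39, 3.94, 3.99 and 4.78 CPM in untreated control libraries. In each of the 3 genes every untreated oxalate library lay above every untreated control library. The log2 fold changes were 2.05 ± 0.37 for Adamtsl5, 1.80 ± 0.29 for Adamtsl4 and 1.52 ± 0.30 for Adamtsl1 (SE, edgeR adjusted p = 0.000207, 7.23e-05 and 0.000448). Adamtsl2, which binds a latent TGF-beta binding protein, rose too (1.10 ± 0.26, adjusted p = 0.00161), and Adamtsl3 did not pass the test (-0.61 ± 0.44, adjusted p = 0.251).

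**Figure D2:**
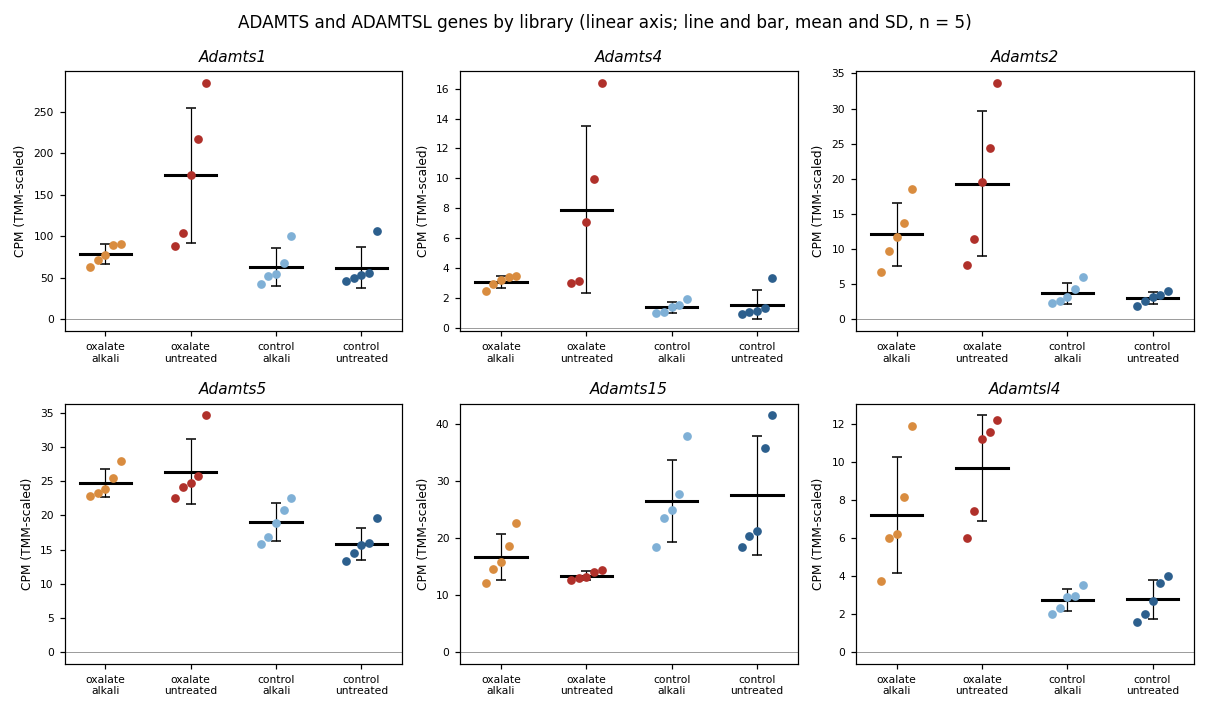
TMM-scaled CPM (vertical axis, linear, its own range in each panel) of Adamts and Adamtsl genes in every library, with the 4 groups along the horizontal axis. Points are libraries, lines are means and bars are SDs of 5 libraries, and for Adamts1 and Adamts4 the top untreated control point is library 19 (106 and 3.31 CPM).

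The inhibitors split. Timp1 (ENSMUSG00000001131, chrX:20870166-20874735), the inducible family member, had 6.58, 8.1, 12.9, 22.3 and 23.6 CPM in untreated oxalate libraries, against 0.365, 0.411, 0.423, 0.713 and 0.829 CPM in untreated control libraries. It rose 26.5-fold with no overlap (log2 fold change 4.73 ± 0.46 (SE), edgeR adjusted p = 4.94e-07). Timp2 (ENSMUSG00000017466, chr11:118301069-118355740), which both inhibits Mmp2 and takes part in its activation by Mmp14, had 88.5, 130, 170, 173 and 272 CPM in untreated oxalate libraries, against 34.5, 37.1, 40.5, 40.6 and 42 CPM in untreated control libraries, and rose 4.29-fold (log2 fold change 2.10 ± 0.25 (SE), edgeR adjusted p = 2.94e-06).

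Timp3 (ENSMUSG00000020044, chr10:86300372-86349506), which stays bound to the matrix and also inhibits ADAMTS enzymes, had 1040, 1470, 1680, 1900 and 2090 CPM in untreated oxalate libraries, against 2280, 2560, 2810, 2840 and 3170 CPM in untreated control libraries. All untreated oxalate libraries were lower, and library 40 was the lowest (log2 fold change -0.74 ± 0.18 (SE), edgeR adjusted p = 0.00197). Scaled to total counts, Timp3 was still lower (log2 fold change -0.46, edgeR adjusted p = 0.00526). Its exons share 21.3% of their length with Syn3 on the other strand, which averaged 7.69 CPM in untreated oxalate libraries and 14.3 CPM in untreated control libraries. The 8 proximal tubule markers, all lower in untreated oxalate mice, ranked the 5 untreated oxalate libraries in the same order as Timp3, with 15100 CPM in library 40 at the low end and 39700 CPM in library 32 at the high end. The part of proximal tubule RNA in the change of Timp3 was not tested.

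Timp4 (ENSMUSG00000030317, chr6:115241892-115252205), known from heart, brain and fat, had 0.166, 0.233, 0.334, 0.412 and 0.562 CPM in untreated oxalate libraries, against 0.0423, 0.107, 0.284, 0.603 and 1.23 CPM in untreated control libraries. The groups overlapped and Timp4 did not pass the test (log2 fold change -0.43 ± 0.78 (SE), edgeR adjusted p = 0.67). Its highest untreated control values were in libraries 26 and 9, and its highest alkali-treated control value in library 4, the libraries with fat markers over 100 CPM.

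**Figure D3:**
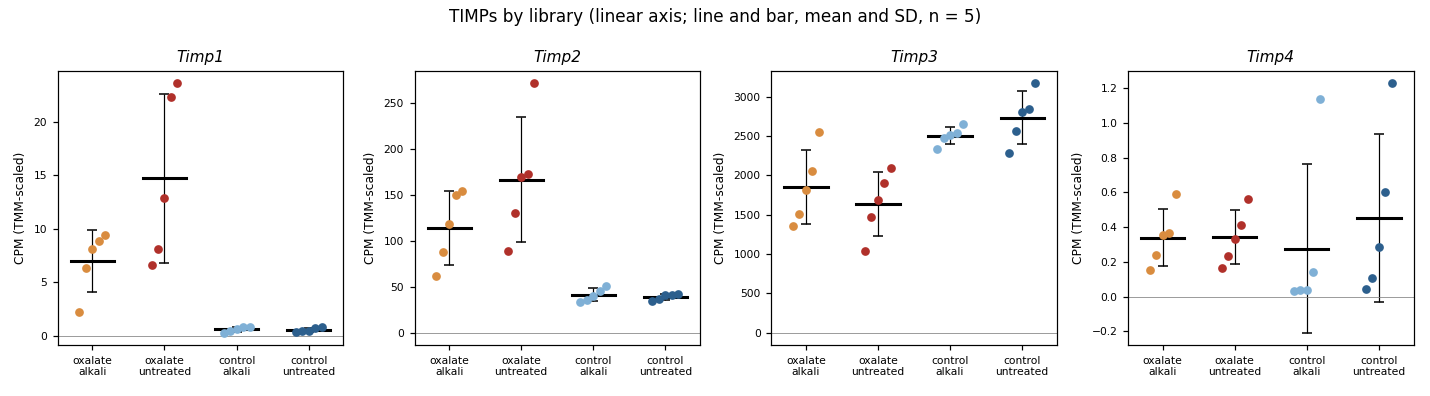
TMM-scaled CPM (vertical axis, linear, its own range in each panel) of the 4 Timp genes in every library, with the 4 groups along the horizontal axis. Points are libraries, lines are means and bars are SDs of 5 libraries. Timp1 and Timp2 lay higher in oxalate libraries with and without alkali, while for Timp3 all 5 untreated oxalate libraries (1040 to 2090 CPM) lay below all 5 untreated control libraries (2280 to 3170 CPM).

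Levels of different genes were set side by side per length, as CPM divided by the summed exon length in kilobases (RPKM). Timp3 was the highest of the 40 genes in every group, at 228 ± 57.8 RPKM in alkali-treated and 201 ± 49.9 RPKM in untreated oxalate mice, and 307 ± 14.0 RPKM in alkali-treated and 335 ± 41.0 RPKM in untreated control mice (SD, n = 5 each). By group mean, Mmp12 was 28th of 40 in untreated control mice at 0.289 ± 0.157 RPKM and came second in untreated oxalate mice at 55.5 ± 55.5 RPKM. That second mean was raised by library 40, with 1100 CPM of Mmp12 against 78.3 to 352 CPM in the others. Second rank was a feature of the mean and held in no single untreated oxalate library. In untreated oxalate library 32, Timp2 (88.5 CPM) and Adamts1 (88 CPM) lay above Mmp12 (78.3 CPM), although their exons are shorter. Per length, Timp2 also lay above Mmp12 in libraries 3 and 39, and Adamts1 in libraries 3 and 12. Summed exon lengths were 7237 bases for Mmp12, 3896 for Timp2 and 5302 for Adamts1. In library 40 Mmp12 (1100 CPM) lay above even Timp3 (1040 CPM), whose exons are longer. In alkali-treated oxalate mice Mmp12 followed Timp3, Timp2 and Adamts1 at 10.1 ± 6.61 RPKM.

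The summed level of the 16 Mmp genes was 47.1 ± 21.1 RPKM in alkali-treated and 107 ± 74.4 RPKM in untreated oxalate mice, against 10.1 ± 1.58 RPKM in alkali-treated and 9.69 ± 0.985 RPKM in untreated control mice. Mmp12 made up on average 19% of this sum in alkali-treated and 44.8% in untreated oxalate mice, against 2.71% in alkali-treated and 3.02% in untreated control mice. Without Mmp12 the sum was 36.9 ± 14.5 RPKM in alkali-treated and 51.4 ± 20.1 RPKM in untreated oxalate mice, against 9.85 ± 1.61 RPKM in alkali-treated and 9.42 ± 1.07 RPKM in untreated control mice. So the other 15 Mmp genes together were also several-fold higher in both oxalate groups.

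The 4 Timp genes, mostly Timp3, summed to 265 ± 44.6 RPKM in alkali-treated and 260 ± 24.4 RPKM in untreated oxalate mice, against 319 ± 15.4 RPKM in alkali-treated and 346 ± 40.4 RPKM in untreated control mice. Without Timp3 the direction was the opposite. The other 3 then summed to 37.2 ± 13.4 RPKM in alkali-treated and 59.4 ± 25.5 RPKM in untreated oxalate mice, against 11.3 ± 2.05 RPKM in alkali-treated and 10.7 ± 0.994 RPKM in untreated control mice.

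The ratio of the Timp sum to the Mmp sum ran from 3.32 to 18.8 in alkali-treated oxalate libraries and from 0.965 to 7.19 in untreated oxalate libraries. It ran from 27.3 to 37.7 in alkali-treated control libraries and from 28.4 to 45.0 in untreated control libraries. No oxalate library reached a control library, and in untreated oxalate library 40 the Mmp sum exceeded the Timp sum. These are ratios of RNA levels and were given no test, and the highest alkali-treated oxalate ratio was that of library 2.

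**Figure D4:**
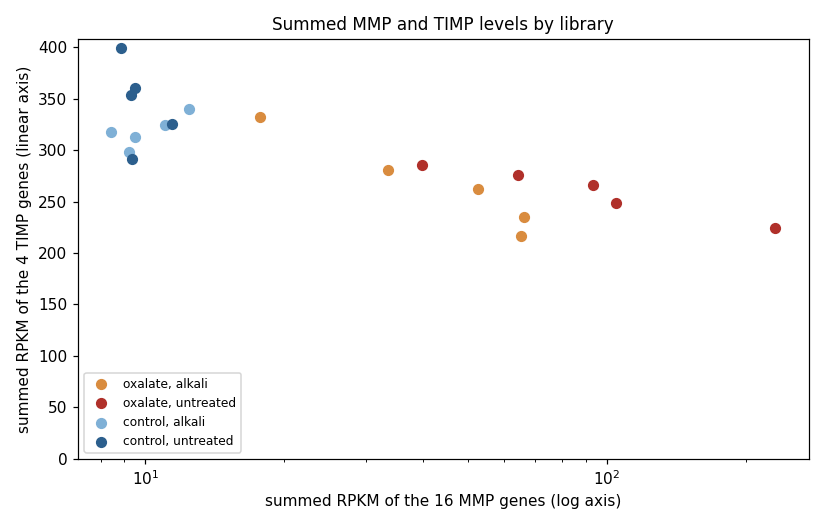
Each point is a library: the horizontal axis gives the summed RPKM of the 16 Mmp genes (log axis) and the vertical axis the summed RPKM of the 4 Timp genes (linear axis), coloured by group. Mmp sums ran from 17.7 to 66.3 in alkali-treated oxalate and 39.8 to 232 in untreated oxalate libraries, against 8.43 to 12.4 in alkali-treated control and 8.87 to 11.4 in untreated control libraries, while Timp sums differed far less.

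The second comparison set alkali-treated against untreated oxalate mice. Mmp12 and Adamts1 fell on alkali, and no other member of either protease family, nor any Timp, passed the test. These were 0 higher and 2 lower of 40 genes, where 1.76% of all genes tested were higher and 2.33% lower, or 4.08% in all. At an unadjusted p under 0.05 it was 0 higher and 9 lower of the 40, where 9.21% of all genes were higher and 11.2% lower. DESeq2 called 0 higher and 3 lower, adding Adamts4, where it called 3.15% of all genes higher and 4.65% lower. The median log2 fold change was -0.34 over the 40 genes and 0.01 over all genes. In 28 of the 40 genes the log2 fold change was negative and in 12 positive, while it was positive in 7897 of the 15430 genes tested. In 1 gene, Mmp24, all alkali-treated libraries lay below all untreated ones, against 1.61% of all genes. Without alkali-treated oxalate library 2 and untreated oxalate library 40, a pair chosen after the data were seen, 0 of the 40 genes were called, where 1.93% of all genes were higher and 2.85% lower, and the median log2 fold change of the 40 was -0.07.

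Mmp12 had 10.6, 36.9, 87.4, 111 and 121 CPM in alkali-treated oxalate libraries, against 78.3, 202, 280, 352 and 1100 CPM in untreated oxalate libraries. All alkali-treated libraries were at or below 121 CPM, but untreated library 32, at 78.3 CPM, lay among them. Mmp12 fell by 2.45 ± 0.60 on the log2 scale (SE, edgeR adjusted p = 0.0289). Without untreated library 40 the log2 fold change was -1.63 (edgeR adjusted p = 0.107), and the call was also lost without untreated library 12 (0.0667), without alkali-treated library 30 (0.0833), and when only the 10 oxalate libraries were fitted (0.193).

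Adamts1 had 63.2, 71.6, 77.1, 89.9 and 91.1 CPM in alkali-treated oxalate libraries, against 88, 104, 174, 217 and 285 CPM in untreated oxalate libraries. Untreated library 32 overlapped with the top of the alkali-treated group, and untreated libraries 12 and 3 stood well above all others. Adamts1 fell by 1.14 ± 0.30 on the log2 scale (SE, edgeR adjusted p = 0.0352). The call was lost without untreated library 3, 12 or 40 and without alkali-treated library 2, 8 or 30, with log2 fold changes from -1.13 to -0.89 and an edgeR adjusted p from 0.0702 to 0.119. It was also lost without the 4 libraries with fat markers (-1.20, edgeR adjusted p = 0.057). Of the AP-1 genes on a list of inducing factors, Fosb, Fosl1 and Fosl2 fell on alkali by 4.32, 2.58 and 1.60 on the log2 scale (edgeR adjusted p = 0.0258, 0.0434 and 0.0184). Jun, Junb and Fos of the same list did not pass (-0.98, -1.37 and -2.25, edgeR adjusted p = 0.102, 0.142 and 0.0525). The promoter window of Adamts1 (250 bases before to 50 after the start) held no AP-1 match. Sequence outside that window was not searched, so this does not bear on the question. The part of these genes in the fall of Adamts1 was not tested.

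The next 4 genes by p did not pass. Adamts4 had 2.48, 2.93, 3.2, 3.37 and 3.49 CPM in alkali-treated oxalate libraries, against 3, 3.11, 7.09, 9.95 and 16.4 CPM in untreated oxalate libraries. The alkali-treated libraries were narrowly spread and untreated libraries 32 and 39 lay among them (log2 fold change -1.35 ± 0.39 (SE), edgeR adjusted p = 0.0569). Timp1 had 2.17, 6.29, 8.07, 8.81 and 9.43 CPM in alkali-treated oxalate libraries, against 6.58, 8.1, 12.9, 22.3 and 23.6 CPM in untreated oxalate libraries, and the groups overlapped through untreated libraries 32 and 39 (log2 fold change -1.08 ± 0.37 (SE), edgeR adjusted p = 0.0967). Mmp24 had 0.103, 0.287, 0.295, 0.328 and 0.435 CPM in alkali-treated oxalate libraries, against 0.524, 0.572, 0.628, 0.932 and 1.17 CPM in untreated oxalate libraries, from 3 to 16 and 18 to 42 reads a library (log2 fold change -1.37 ± 0.48 (SE), edgeR adjusted p = 0.107). Mmp19 had 1.1, 2.45, 4.59, 4.8 and 7.07 CPM in alkali-treated oxalate libraries, against 3.38, 4.37, 11.9, 16.1 and 23.5 CPM in untreated oxalate libraries, again with untreated libraries 32 and 39 inside the alkali-treated range (log2 fold change -1.57 ± 0.57 (SE), edgeR adjusted p = 0.119). Without untreated library 32, Adamts4, Timp1 and Mmp14 passed as well (edgeR adjusted p = 0.0164, 0.0342 and 0.0357), and Adamts4 also passed without untreated oxalate library 39 or untreated control library 19 (edgeR adjusted p = 0.0267 and 0.0346).

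Among the other named genes, log2 fold changes on alkali were -0.33 ± 0.52 for Mmp7, -0.77 ± 0.41 for Mmp3, -0.56 ± 0.29 for Mmp2 and -0.67 ± 0.25 for Mmp14 (SE, edgeR adjusted p = 0.769, 0.291, 0.284 and 0.133). Mmp7 ranged from 0.999 to 10.3 CPM on alkali, against 3.49 to 14.1 CPM without it. Timp2 had a log2 fold change of -0.55 ± 0.24 and Timp3 of 0.18 ± 0.18 (SE, edgeR adjusted p = 0.204 and 0.601). The procollagen protease Adamts2 did not pass (-0.68 ± 0.34, adjusted p = 0.263). None of these p-values shows that alkali left a gene unchanged.

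**Figure D5:**
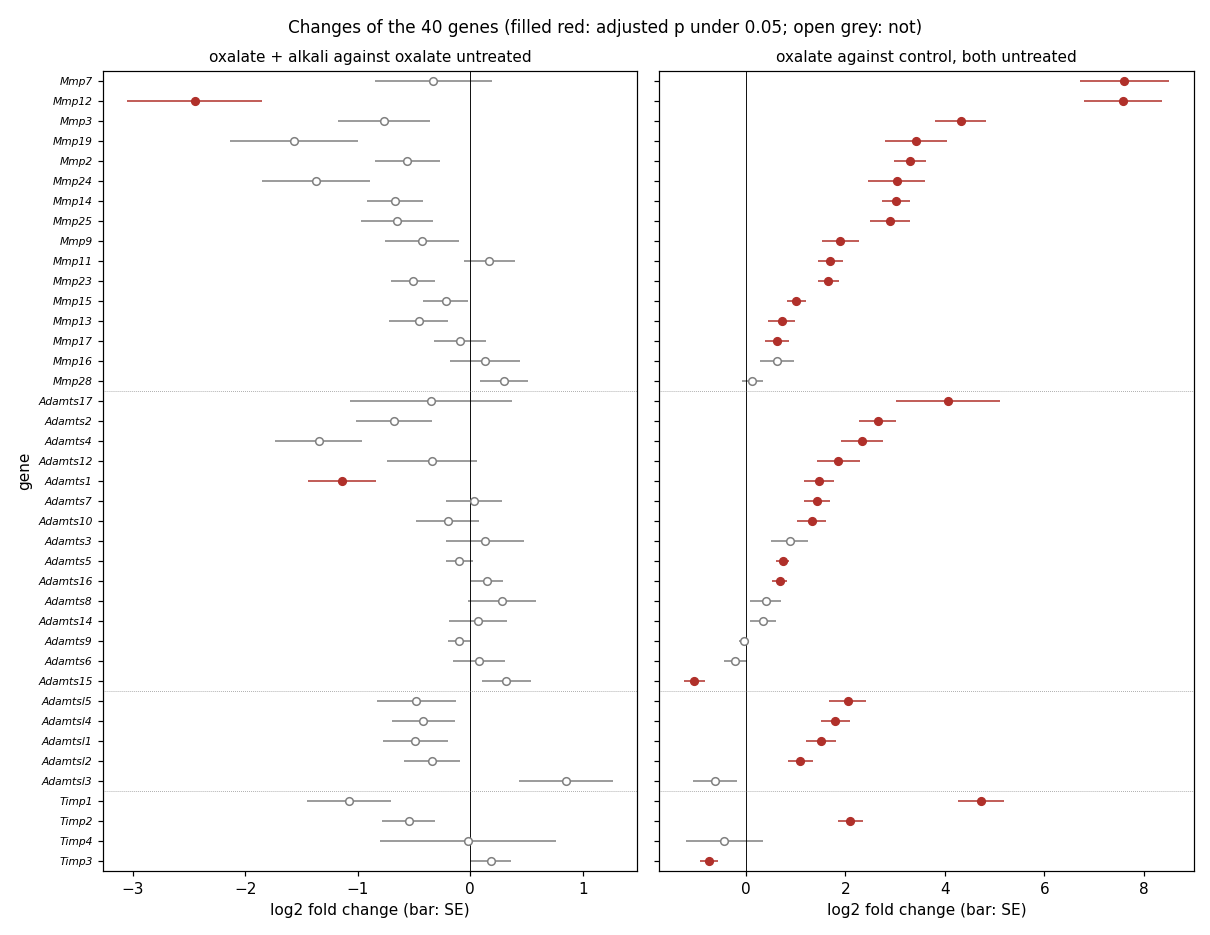
Log2 fold change of each of the 40 genes (horizontal axes, which differ in range; bars are SE) for alkali-treated against untreated oxalate mice on the left and untreated oxalate against untreated control mice on the right. Filled red points passed an adjusted p of 0.05 and open grey points did not; on the left only Mmp12 (-2.45) and Adamts1 (-1.14) are filled, and on the right only Adamts15 (-1.03) and Timp3 (-0.74) are filled to the left of 0.

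The third comparison set oxalate against control mice with both on alkali. Of the 40 genes, 27 were higher and 1, Adamts15, was lower in alkali-treated oxalate mice, where 23.4% of all genes tested were higher and 17.1% lower, or 40.4% in all. The median log2 fold change was 1.14 over the 40 genes and 0.02 over all genes. In 15 genes all alkali-treated oxalate libraries lay above all alkali-treated control libraries and in 0 genes below, against 10.8% and 5.51% of all genes. Among the 28 genes with 10 or more counts in every library, 18 were higher and 1 lower, and the median log2 fold change was 0.85. Here too the matching share of all such genes was not counted. Scaling to total counts raised the log2 median of all genes from 0.02 to 0.24, and 85.6% of all calls were then higher, against 57.8% with TMM. Under that scaling 30 of the 40 genes were higher and 0 lower (Adamts15 -0.45, edgeR adjusted p = 0.0981), where 36.6% of all genes tested were higher and 6.18% lower. Without the 4 libraries with fat markers, 24 were higher and 1 lower, against 18.6% and 8.05% of all genes tested.

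Mmp12, at 10.6 to 121 CPM in alkali-treated oxalate libraries, had 1.61, 1.82, 1.94, 2.03 and 2.25 CPM in alkali-treated control libraries and rose (log2 fold change 5.24 ± 0.73 (SE), edgeR adjusted p = 9.86e-05). Mmp7 had 0.999, 1.74, 6.2, 7.44 and 10.3 CPM in alkali-treated oxalate libraries, against 0, 0, 0.0366, 0.145 and 0.186 CPM in alkali-treated control libraries. It rose, with at most 5 reads in any alkali-treated control library (log2 fold change 6.16 ± 0.80 (SE), edgeR adjusted p = 5.18e-05). Mmp3 (3.40 ± 0.50, adjusted p = 0.000112), Mmp19 (2.71 ± 0.65, adjusted p = 0.00444), Mmp2 (2.63 ± 0.32, adjusted p = 2.88e-05) and Mmp14 (2.19 ± 0.27, adjusted p = 3.08e-05) rose too. Of the inhibitors, Timp1 had 2.17, 6.29, 8.07, 8.81 and 9.43 CPM in alkali-treated oxalate libraries, against 0.282, 0.409, 0.66, 0.77 and 0.835 CPM in alkali-treated control libraries, with no overlap (log2 fold change 3.56 ± 0.44 (SE), edgeR adjusted p = 3.08e-05).

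Timp2 had 61.5, 87.4, 118, 150 and 154 CPM in alkali-treated oxalate libraries, against 33.6, 35.9, 40.4, 45.9 and 50.8 CPM in alkali-treated control libraries, and rose (log2 fold change 1.47 ± 0.25 (SE), edgeR adjusted p = 0.000324). Timp3 had 1360, 1510, 1810, 2050 and 2550 CPM in alkali-treated oxalate libraries, against 2340, 2480, 2510, 2540 and 2650 CPM in alkali-treated control libraries. Alkali-treated oxalate library 2, at 2550 CPM, lay within the control range and the other 4 below it, and Timp3 narrowly missed the threshold (log2 fold change -0.43 ± 0.18 (SE), edgeR adjusted p = 0.0567). Without library 2 it passed, at -0.57 (edgeR adjusted p = 0.00877), as it did without untreated oxalate library 32 or 40 (-0.46 each, edgeR adjusted p = 0.0371 and 0.0192) and by DESeq2 (adjusted p = 0.024). Timp4 had 0.151, 0.241, 0.353, 0.365 and 0.589 CPM in alkali-treated oxalate libraries, against 0.0313, 0.0363, 0.0372, 0.139 and 1.14 CPM in alkali-treated control libraries, and did not pass (log2 fold change 0.31 ± 0.82 (SE), edgeR adjusted p = 0.779). Without alkali-treated control library 4 it did, at 2.40 (edgeR adjusted p = 0.0277), and without all 4 libraries with fat markers at 2.12 (edgeR adjusted p = 0.0248).

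Adamts1 did not pass between oxalate and control mice on alkali: it had 63.2, 71.6, 77.1, 89.9 and 91.1 CPM in alkali-treated oxalate libraries, against 42.4, 51.9, 54.7, 68.2 and 101 CPM in alkali-treated control libraries. The highest value of all was that of alkali-treated control library 27 (log2 fold change 0.30 ± 0.29 (SE), edgeR adjusted p = 0.415). Adamts4 (1.17 ± 0.41, adjusted p = 0.0312), Adamts2 (1.71 ± 0.36, adjusted p = 0.00162), Adamts12 (1.61 ± 0.43, adjusted p = 0.00756), Adamts7 (1.28 ± 0.26, adjusted p = 0.00121) and Adamts10 (1.29 ± 0.29, adjusted p = 0.00298) rose, as did Adamtsl5 (1.59 ± 0.37, adjusted p = 0.00355), Adamtsl4 (1.40 ± 0.29, adjusted p = 0.00162) and Adamtsl1 (0.84 ± 0.30, adjusted p = 0.0315). The call of Adamts4 was lost without alkali-treated oxalate library 5, 8 or 33 or alkali-treated control library 1, 7, 27 or 37 (edgeR adjusted p up to 0.0709). That of Adamtsl1 was lost without alkali-treated oxalate library 8 or 33 or alkali-treated control library 1, 7, 27 or 37 (up to 0.130, without library 33). Both oxalate comparisons called 27 genes, 26 of them higher. Adamts1, Mmp13, Mmp17 and Timp3 were called without alkali only and Adamts3 (1.08 ± 0.38, adjusted p = 0.0306) on alkali only. Adamts3 lost its call without alkali-treated oxalate library 5 or 33 or alkali-treated control library 1, 7 or 37 (edgeR adjusted p up to 0.0973). On alkali Mmp17 (0.56 ± 0.24, adjusted p = 0.0619), Mmp28 (0.46 ± 0.21, adjusted p = 0.0896) and Adamts14 (0.54 ± 0.26, adjusted p = 0.101) passed without alkali-treated oxalate library 2 (0.67, 0.54 and 0.70, edgeR adjusted p = 0.0238, 0.0421 and 0.0206). Mmp17 and Mmp28 also passed without alkali-treated control library 4 (0.65 and 0.57, edgeR adjusted p = 0.0475 and 0.0491). Of the 29 genes higher in oxalate mice without alkali, 26 had a lower mean in alkali-treated than in untreated oxalate mice, and all 29 had a higher mean in alkali-treated oxalate mice than in either control group. The 29 genes were picked for high values in untreated oxalate relative to untreated control libraries, so that choice by itself favours both counts. The same counts were not made over all genes called higher. The 3 comparisons also share libraries, so these counts are not independent.

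Alkali in control mice changed 0 of the 40 genes (edgeR), where 0% of all genes tested were called. At an unadjusted p under 0.05 it was 2 genes, Adamts5 and Mmp25, both with positive log2 fold changes (0.27 and 0.98), where 1.29% of all genes were higher and 1.23% lower. DESeq2 called 0 of the 40, and 0.0194% of all genes higher and 0% lower. In 0 of the 40 genes did all alkali-treated control libraries lie above all untreated control libraries, and in 0 below, against 0.557% and 0.467% of all genes. In this comparison Mmp12 had a log2 fold change of -0.11 ± 0.76, Timp1 of 0.09 ± 0.50 and Timp3 of -0.13 ± 0.18 (SE). The difference between the alkali effects in oxalate and in control mice, the interaction, passed for 0 of the 40 genes (edgeR) and for 0% of all genes. At an unadjusted p under 0.05 it was 0 positive and 4 negative of the 40. Of all genes, 4.12% were positive and 5.15% negative. With both directions added, the share of the 40 was close to that of all genes, but it was all negative. The 4 were Mmp25 (-1.62 ± 0.56), Adamts1 (-1.18 ± 0.42), Mmp12 (-2.34 ± 0.96) and Mmp14 (-0.83 ± 0.37). DESeq2 called 0 of the 40, and 0.0778% of all genes positive and 0.0907% negative. The fall of Mmp12 and Adamts1 on alkali was therefore not shown to differ between oxalate and control mice.

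The libraries of a group carried most of these genes up or down together. Alkali-treated oxalate library 2 was the lowest of its group for 28 of the 29 genes higher in oxalate mice without alkali. In untreated oxalate mice library 40 was the highest for 23 of the 29 and library 32 the lowest for 24. The 10 macrophage markers, all of them higher in untreated oxalate mice with a median log2 fold change of 3.23, summed to 272 to 878 CPM in alkali-treated oxalate libraries and 687 to 2780 CPM in untreated oxalate libraries. They summed to 120 to 178 CPM in alkali-treated control libraries and 121 to 161 CPM in untreated control libraries. Their lowest oxalate sums were those of alkali-treated library 2 and untreated library 32 in each group, and the highest of all was that of untreated library 40. On alkali 0 of the 10 were higher and 2 lower in oxalate mice.

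The 8 fibroblast and mural markers, all higher in untreated oxalate mice, summed to 220 to 597 CPM in alkali-treated and 276 to 735 CPM in untreated oxalate libraries, against 147 to 233 CPM in alkali-treated and 147 to 203 CPM in untreated control libraries, and on alkali 0 of the 8 passed in oxalate mice. The 5 injured tubule markers summed to 58.9 to 176 CPM in alkali-treated and 175 to 469 CPM in untreated oxalate libraries, against 11.7 to 20.6 CPM in alkali-treated and 13.3 to 19.6 CPM in untreated control libraries. All 5 were higher in untreated oxalate mice. On alkali 4 of the 5 fell in oxalate mice, namely Vcam1 (-1.42 ± 0.25, adjusted p = 0.00522), Sox9 (-2.02 ± 0.41, adjusted p = 0.011), Havcr1 (-1.95 ± 0.41, adjusted p = 0.014) and Krt20 (-2.10 ± 0.51, adjusted p = 0.0267), and Lcn2 (-0.61 ± 0.36, adjusted p = 0.352) did not pass. The 7 neutrophil markers summed to 1.58 to 6.84 CPM in alkali-treated and 4.69 to 15.9 CPM in untreated oxalate libraries, against 0.670 to 1.42 CPM in alkali-treated and 0.550 to 3.14 CPM in untreated control libraries. The 2 groups without alkali did not overlap. Of the 3 neutrophil markers abundant enough to be tested, Csf3r (3.18 ± 0.42, adjusted p = 7.96e-06) and S100a9 (1.71 ± 0.64, adjusted p = 0.0316) were higher in untreated oxalate mice and S100a8 (1.61 ± 0.76, adjusted p = 0.0846) did not pass, and on alkali 0 of the 3 passed in oxalate mice. Of the 7 genes, Ly6g was at 0 in every untreated oxalate library and Mpo at 0 in every library of the other groups. The part of each cell type in the changes of the proteases and inhibitors was not tested.

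Genes that act on, beside or through these enzymes were read from further lists, chosen with earlier results of these data known. Of 12 activators and plasmin system genes, 5 were higher and 7 lower in untreated oxalate mice than in untreated control mice, with a median log2 fold change of -0.34. Serpine2, a serine protease inhibitor that blocks plasminogen activators and thrombin, rose by 2.11 ± 0.24 on the log2 scale (SE, edgeR adjusted p = 1.68e-06). Plat, tissue plasminogen activator, and Plaur, the urokinase receptor, rose by 0.87 and 1.96 (edgeR adjusted p = 3.2e-05 and 0.000112). On alkali 1 of the 12 was higher, the proprotein convertase Pcsk6 (0.71 ± 0.13, adjusted p = 0.00792), and 2 were lower, among them Plaur (-1.22 ± 0.32, adjusted p = 0.0381).

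Of 10 other inhibitors, clearance and docking genes tested, 4 were higher and 1 lower, with a median log2 fold change of 0.07. They were led by the Mmp9-docking receptor Cd44 (4.09 ± 0.34, adjusted p = 1.78e-07) and the clearance receptor Lrp1 (1.86 ± 0.28, adjusted p = 3.66e-05), followed by Spock2 (1.54 ± 0.24, adjusted p = 4.4e-05) and the procollagen proteinase enhancer Pcolce (0.56 ± 0.13, adjusted p = 0.00134). On alkali Cd44 fell (-1.38 ± 0.29, adjusted p = 0.0135). Of 14 other metzincin family genes tested, not all of which code for active proteases, 9 were higher and 3 lower, and the median log2 fold change was 0.58. Adam8, a leukocyte protease (4.34 ± 0.44, adjusted p = 6.25e-07), Adam23 (2.77 ± 0.35, adjusted p = 5.06e-06) and the procollagen C-proteinase Bmp1 (1.88 ± 0.26, adjusted p = 1.39e-05) rose, and the brush border protease Mep1b fell (-1.37 ± 0.22, adjusted p = 7.14e-05). On alkali 0 were higher and 1, Adam8 (-1.46 ± 0.37, adjusted p = 0.0292), was lower.

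Of 22 matrix and plasma substrates tested, 17 were higher and 1 lower (median log2 fold change 1.15), led by fibronectin (Fn1) (3.13 ± 0.33, adjusted p = 9.67e-07) and the collagens Col3a1, Col1a1 and Col1a2. On alkali 0 were higher and 1 lower, thrombospondin 1 (Thbs1) (-0.84 ± 0.21, adjusted p = 0.0293). Of 20 inducing cytokines and transcription factors tested, 16 were higher and 1 lower (median log2 fold change 1.82), led by Runx1 (3.76 ± 0.31, adjusted p = 1.78e-07), Tgfb2 (1.87 ± 0.22, adjusted p = 2.64e-06), Tnf (4.32 ± 0.57, adjusted p = 7.29e-06) and Il1b (3.24 ± 0.45, adjusted p = 1.35e-05). On alkali 0 were higher and 4 lower, which were Runx1 (-1.12 ± 0.27, adjusted p = 0.0255), Fosb, Fosl1 and Fosl2. With both groups on alkali, 15 of the 22 substrates and 10 of the 20 inducing factors were higher in oxalate mice, and 1 and 0 were lower.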

How the data were processed

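Poly(A) RNA was sequenced from TruSeq libraries, per the labels' protocols. The deposited values are unnormalized read counts for 25700 mouse Ensembl genes. Per the submitters' processing notes, the tools were bcl2fastq 2.19, Trimmomatic, STAR 2.7.1, featureCounts and edgeR. These notes name GRCh38.p5, a human build, which leaves the mouse build used open, and the strand setting of the counting is not given in the sources used here. Counts of genes with exons shared on the other strand are therefore uncertain, which holds for Adamts4, Adamts7, Adamts8, Adamts9, Mmp7, Mmp11, Mmp12, Mmp19, Mmp24, Mmp28, Timp3 and Timp4. Symbols, coordinates and exon lengths are those of GENCODE M21 (GRCm38), in which 25664 of the identifiers were found and 36 were not. Promoter sequences are from RefSeq.

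Groups came from the sample titles and treatment labels. Genes were kept by filterByExpr (minimum count 10), leaving 15430 and removing 10270. In R 4.3.3, edgeR 4.0.16 (limma 3.58.1) fitted 4 group means to all 20 libraries by the robust quasi-likelihood method after TMM scaling, and p-values were Benjamini-Hochberg adjusted over all genes tested, with calls at 0.05. The SE is the log2 fold change over the square root of F. RPKM uses summed exon length. Depth allows a count of 0 to hide up to 3 counts, or 0.0759 to 0.117 CPM, by counting error alone. No 2 libraries of a group agreed within counting noise. The code was tested on simulated counts. Any of the 40 genes could be named; values by library are given for the Timp genes, for the called genes with the largest change in each class (6 for Mmp and Adamts, 3 for Adamtsl, average log2 CPM at least 0) and for the 6 smallest p on alkali in oxalate mice. The members and lists were chosen with earlier results of these data known. A gene that the further lists count is not reported here by name. Alternatives were DESeq2 1.42.0, its size factors, total counts, no filter, a fit to only the groups compared, and each library left out. A pair was added after the data were seen: leaving out the 4 libraries with fat markers, and leaving out alkali-treated oxalate library 2 with untreated oxalate library 40.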

Additional observations from a re-analysis of the deposited data

Results flagged for a closer look

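Within each group of 5, the highest or lowest library of every gene was compared with its nearest neighbour (Dixon's ratio, 95% critical value). Of 160 gene and group pairs, 13 (8.12%) held a library far from the others, where chance flags about 1 in 20.

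Untreated oxalate library 40 was far above its group for Mmp12 (1100 CPM, next 352), Mmp7 (14.1 CPM, next 6.12), Mmp11 (20.7 CPM, next 13.6), Adamts5 (34.6 CPM, next 25.7) and Mmp16 (0.594 CPM, next 0.300). The same library had the highest sum of macrophage markers, 2780 CPM. Alkali-treated control library 4 was far above its group for Mmp14 (11.3 CPM, next 8.58), Adamts12 (2.09 CPM, next 1.13), Timp4 (1.14 CPM, next 0.139) and Adamts17 (0.330 CPM, where the other 4 libraries held 0 reads). It was also the library of its group with fat markers over 100 CPM. Alkali-treated oxalate library 33, the library of its group with fat markers over 100 CPM, was far above the rest for Adamts8 (2.55 CPM, next 1.39). Untreated control library 19 was far above its group for Adamts1 (106 CPM, next 55.6) and Adamts4 (3.31 CPM, next 1.31). Untreated control library 9 was far below its group for Mmp16 (0.113 CPM, next 0.240), a difference of a few reads.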

How the results depend on the processing

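No paired analysis was possible because the groups share no replicate numbers in the labels. Of the 2 genes called on alkali in oxalate mice, 0 remained with no filter on low counts and 0 when only the 10 oxalate libraries were fitted. Leaving out 1 library at a time gave 0 to 5 calls in that comparison, leaving out the 4 libraries with fat markers gave 1 (Mmp12), and leaving out alkali-treated oxalate library 2 with untreated oxalate library 40 gave 0. With no filter the edgeR adjusted p was 0.0556 for Mmp12 and 0.0604 for Adamts1. Calls over all genes tested moved too. They were 271 higher and 359 lower of 15430 in the main fit and 203 and 218 of 20737 with no filter. With only the oxalate libraries they were 15 and 14 of 15314. With 1 library left out they ran from 93 and 92 of 15523 (untreated oxalate library 12) to 442 and 718 of 15570 (untreated oxalate library 32). Total counts and DESeq2's size factors in place of TMM gave 2 calls and DESeq2 3. The cause of these losses was not tested.

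Counts in the oxalate comparisons moved less. Without alkali, 31 genes were called, and 29 to 31 with any 1 library left out; the only calls ever lost among the alternatives that tested the gene were those of Mmp13 and Mmp17. On alkali, 28 were called, and 22 to 32 with any 1 library left out (22 without alkali-treated oxalate library 8 or 33 or alkali-treated control library 7, 32 without alkali-treated oxalate library 2), with calls of 8 genes lost at least once (Adamts15, Adamts3, Adamts4, Adamts5, Adamtsl1, Adamtsl2, Mmp15 and Mmp24). Over all genes tested, calls without alkali ran from 3751 higher and 3114 lower of 15523 (without untreated oxalate library 12) to 4031 and 4351 of 15570 (without untreated oxalate library 32). On alkali they ran from 2842 higher and 1586 lower of 15484 (without alkali-treated oxalate library 33) to 4293 and 3634 of 15574 (without alkali-treated oxalate library 2). Alkali in control mice and the interaction gave 0 calls among the 40 genes under every alternative run. No called gene changed sign. Adamts17 was most moved, with a log2 fold change on alkali of 7.36 without alkali-treated control library 4, against 3.27 with it. Depth limits the genes under about 1 CPM, among them Mmp24, Mmp25, Mmp16, Adamts17, Adamts3 and Timp4.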

Other observations

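Of the 51 genes with fitting symbols, 11 fell short of the count minimum and were not tested. Summed over 5 libraries each, Mmp27 had 26 counts in alkali-treated and 53 in untreated oxalate mice, against 0 in alkali-treated and 0 in untreated control mice, and Mmp10 had 15 and 11 counts in the oxalate groups, against 0 and 0 in the control groups. The neutrophil collagenase Mmp8 had 13 counts in alkali-treated and 23 in untreated oxalate mice, against 5 in alkali-treated and 3 in untreated control mice. Mmp27, Mmp10 and Mmp8 lie in the chromosome 9 stretch. Mmp1a and Mmp1b of the same stretch had 0 counts in all 20 libraries. Adamts13, the protease of von Willebrand factor, had 4 counts in alkali-treated and 15 in untreated oxalate mice, against 1 in alkali-treated and 0 in untreated control mice. Its substrate gene Vwf rose in untreated oxalate mice relative to untreated control mice (1.37 ± 0.34, adjusted p = 0.00247), given as log2 fold change ± SE with the edgeR adjusted p.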
